A study of Mus musculus with 12 samples.

Results

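The tissue kallikreins Klk1, Klk8, Klk10 and Klk15 were followed in the rectum of mice with chemically induced colitis, with and without berberine (BBR). They are 4 of the 17734 genes in the expression table, chosen by symbol. Among genes with a mean of at least 1 FPKM and no overlap between the groups, Klk15 was the largest called fall of colitis mice against normal mice, and the other members were taken with it as relatives. The difference between colitis mice and normal mice is therefore given for these genes as a description, without a test.

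Kallikreins are secreted serine proteases of the trypsin and chymotrypsin fold that are made as inactive precursors. Klk1, the true tissue kallikrein, cuts kininogen to release kinins, short peptides that act on the bradykinin receptors to widen vessels and move salt and water. The mouse carries an expanded set of close Klk1 copies, the Klk1b genes, some of which process growth factors. Klk8 (neuropsin) and Klk10 are best known from brain and from stratified epithelia, and Klk15 is a trypsin-like member known from accessory glands of the male tract. Kallikreins can also cut protease-activated receptors, and inhibitors of the serpin and Kazal types hold them in check.

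Bulk RNA from colorectum of C57BL/6 mice was measured in 4 groups of 3 mice each. One pair of groups, normal mice and colitis mice, got no BBR, and in the other pair normal or colitis mice received it. The colitis groups drank dextran sulfate sodium (DSS), a polymer toxic to the bowel lining, for 7 days. BBR, a plant alkaloid, was given by gavage, for 6 days by the labels' protocol, while the labels' treatment field and the study's methods give 7 days. The study used adult males and names the tissue as rectum. No group carries a transgene, and DSS colitis is a model of chemical injury in which epithelium, muscle and infiltrating cells are sampled together. In such bulk tissue, fewer cells of a type and less RNA per cell cannot be told apart.

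Values are read as FPKM, which scale reads by transcript length and by depth. Column totals ran from 482194 to 765876. In each group the lowest total belonged to the mouse numbered 4, and these 4 mice also had 872 to 1086 genes at 0 against 1332 to 1926 in the other 8. The steps between low values fitted another length correction in them, with 30 to 60 bases taken off a transcript against 250 to 310 bases in the others, so values of short genes such as the kallikreins are not on quite the same scale in both sets of mice. Each group holds 1 such mouse, and values within the 8 mice numbered 1 to 3 are given beside the main results. Colon epithelium markers were present throughout, with a summed level of 11170 to 29550 FPKM.

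Sequences just ahead of the start sites are shown because the members differ there while lying in 1 cluster on chromosome 7. They are the last 60 bases before the RefSeq start on the plus strand of GRCm38.p6, written 5′ to 3′, with a TATAAA or TTTAAA box in capitals where a search of both strands of the 300-base promoter window found one.
Klk15, chr7:43931615-43931674: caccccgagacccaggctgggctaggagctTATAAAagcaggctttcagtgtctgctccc
Klk1b4, chr7:44207373-44207432: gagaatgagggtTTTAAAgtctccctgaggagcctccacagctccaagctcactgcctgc
Klk1b5, chr7:44216414-44216473: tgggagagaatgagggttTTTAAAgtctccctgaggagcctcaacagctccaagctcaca
Klk1, chr7:44225300-44225359: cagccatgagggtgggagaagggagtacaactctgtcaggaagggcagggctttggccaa
Klk8, chr7:43797517-43797576: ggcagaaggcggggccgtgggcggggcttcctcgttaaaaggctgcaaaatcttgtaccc
Klk10, chr7:43780994-43781053: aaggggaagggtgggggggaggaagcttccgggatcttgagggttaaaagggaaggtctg
Klk15 held TATAAA 30 bases before its start, a motif found in 13.62% of the 32851 RefSeq promoter windows. The Klk1b4 and Klk1b5 windows held TTTAAA, found in 13.16% of windows. The Klk1, Klk8 and Klk10 windows held neither motif.

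Coding sequence is shown next because it decides which kallikrein values can be told apart. Klk1 and Klk1b5 share an unbroken stretch of 145 bases, positions 346 to 490 of a coding sequence of 783 bases in both genes.
Shared by Klk1 and Klk1b5: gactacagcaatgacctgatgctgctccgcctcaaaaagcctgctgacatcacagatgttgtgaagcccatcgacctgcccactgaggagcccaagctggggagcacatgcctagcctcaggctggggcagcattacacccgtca
Of the 905 windows of 50 bases along the Klk1 transcript, 170 (18.8%) were identical in Klk1b5 and 544 (60.1%) matched it with at most 2 mismatches. Identical windows with Klk1b4 made up 6.85%. A read from such a window can belong to either gene, so the low Klk1b values are uncertain beside the far higher Klk1. Klk15, Klk8 and Klk10 shared 0 windows with each other or with Klk1, Klk1b3, Klk1b4 and Klk1b5, even with 2 mismatches, and the longest run that Klk15 shared with the Klk1 coding sequence was 14 bases.

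Klk1 stood far above the rest of the family. It was 3577, 3510.2 and 1479 FPKM in the normal mice numbered 1, 3 and 4, and 3693, 3569 and 1760.3 FPKM in the same numbers of normal mice receiving BBR. These levels placed it between the 15th and the 25th most abundant gene of each mouse. In colitis mice it was 290.2, 1015 and 425 FPKM, ranks 355, 117 and 187, so every colitis mouse lay below every normal mouse. In colitis mice receiving BBR it was 2367, 1723 and 1546 FPKM, ranks 35, 56 and 27. All 3 lay above every colitis mouse and within the span of the mice without colitis, whose low end came from the mice numbered 4. The mice numbered 2 and 3, at 2367 and 1723 FPKM, lay below every mouse without colitis numbered 1 or 3 (3510.2 to 3693 FPKM).

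Klk15 was a low gene, at or close to 0 in colitis mice. It was 2.03, 5.33 and 13.19 FPKM in normal mice and 5.33, 5.91 and 8.77 FPKM in normal mice receiving BBR. In colitis mice it was 0, 0.12 and 0.24 FPKM, which the step size puts at about 0, 1.2 and 3.7 reads, against 17.6 to 196.6 reads in normal mice. Colitis mice receiving BBR had 0.69, 0.08 and 2.07 FPKM, or about 5.8, 0.7 and 30.7 reads. The value of 2.07 came from the mouse numbered 4 and reached the lowest normal mouse, which is numbered 1. It lay below the mice without colitis numbered 4 (13.19 and 8.77 FPKM). The value of 0.08 lay inside the colitis range. Read numbers rest on a current transcript model and cover counting error only. A level of 3 reads would be 0.193 to 0.339 FPKM for Klk15 in colitis mice, so the numbers in that group are at or near the detection limit.

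Klk8 was expressed weakly, and its levels overlapped between all groups. It was 0.81, 0.72 and 0.61 FPKM in normal mice, 0.43, 0.94 and 0.46 FPKM in those receiving BBR and 0.70, 0.93 and 0.61 FPKM in colitis mice. In colitis mice receiving BBR it was 0.21, 0.71 and 0.24 FPKM, the lowest mean of the 4 groups at 0.387 ± 0.280 (SD, n = 3). All of these values correspond to about 3.3 to 16.2 reads.

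Klk10 was at the limit of detection. It was 0.12, 0.06 and 0.24 FPKM in normal mice, 0.12, 0 and 0 in those receiving BBR, 0.06, 0 and 0.16 in colitis mice, and 0 in all 3 colitis mice receiving BBR. Its highest value stands for about 5.9 reads, and a level of 3 reads would be 0.121 to 0.182 FPKM in the colitis mice receiving BBR. With a mean of 0.0633 FPKM it fell under the minimum mean of 0.1 FPKM, so 3 of the 4 members were fitted.

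**Figure D1:**
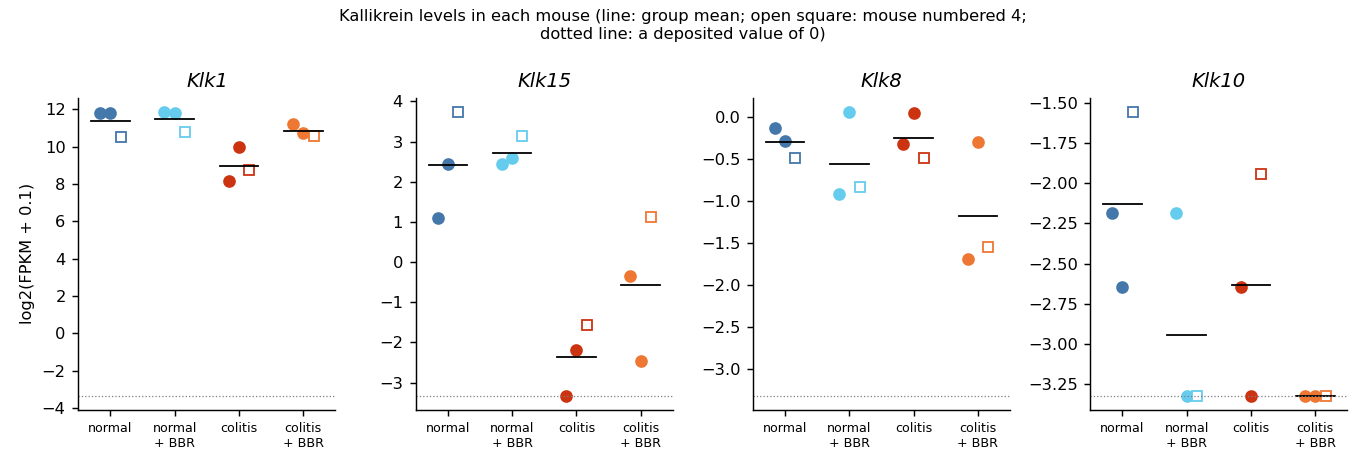
Levels of Klk1, Klk15, Klk8 and Klk10 in each of the 12 mice, as log2(FPKM + 0.1) with a separate vertical scale for each gene. Filled circles are mice numbered 1 to 3, open squares mice numbered 4, black lines group means on this scale, and the dotted line a deposited value of 0. Klk1 and Klk15 in colitis mice lie below every normal mouse, while Klk8 overlaps between groups and Klk10 is at 0 in 6 mice.

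The level order of the members was the same in all group means, with Klk1 first and Klk10 last, except that Klk15 changed place with Klk8. In normal mice the means were 2855 ± 1192 for Klk1, 6.85 ± 5.73 for Klk15, 0.713 ± 0.10 for Klk8 and 0.140 ± 0.092 for Klk10 (FPKM, SD, n = 3), and no mouse of this group had Klk8 above Klk15. In colitis mice Klk15 averaged 0.120 ± 0.120 FPKM (SD, n = 3), below Klk8 at 0.747 ± 0.165 in each mouse and not apart from Klk10 at 0.0733 ± 0.0808. In colitis mice receiving BBR the means were 0.947 ± 1.02 for Klk15 and 0.387 ± 0.280 for Klk8, with Klk15 above Klk8 in the mice numbered 2 and 4, so these neighbours did not differ beyond their spread.

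The comparison of colitis mice with normal mice chose the genes, and its values follow without a test. The difference on the log2(FPKM + 0.1) scale was -4.78 (SE 0.86) for Klk15, -2.40 (SE 0.56) for Klk1 and 0.05 (SE 0.43) for Klk8. The ratio of group means was 0.202 for Klk1. Because the colitis values of Klk15 are near 0, its difference depended on the constant added before the logarithm and was -2.54 with 1 and -6.25 with 0.01. Limma called 165 of 15315 genes here (1.08%) at an adjusted p under 0.05, and 22.2% of the genes lay lower in all 3 colitis mice without overlap, as Klk1 and Klk15 did. The falls next in size among called genes with a mean of at least 1 FPKM and no overlap began with C1qtnf3 at -4.63. The median over all tested genes was -0.32 in this comparison and -0.40 between the groups receiving BBR, and centring each mouse on its median brought these to 0.02 and 0.06 and the difference of Klk15 to -4.44 and -2.84.

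The 6 mice receiving BBR did not enter the choice of genes. Limma took its spread from all 12 mice, so its SE, interval and p also rest on mice used in that choice. The permutation and the fit of the compared groups alone rest on these 6 mice only. Klk15 was lower in colitis mice receiving BBR than in normal mice receiving BBR, 0.947 against 6.67 FPKM in the mean, and all 3 colitis mice lay below all 3 others. The log2 difference was -3.29 (SE 0.86, 95% interval -5.17 to -1.41). Its unadjusted p was 0.00251 and its adjusted p 0.207 by limma, so the call was not made over all genes. Non-overlap in this direction was found for 18.0% of all genes, and limma called 6 genes (0.0392%). The exact two-sided permutation p was 0.1, the smallest that 3 mice against 3 allow. Among mice numbered 1 to 3 alone the difference was -3.92 with an adjusted p of 0.0341, in a fit that called 15% of all genes, and between the mice numbered 4 it was -2.03 without a test. Without the colitis mouse receiving BBR numbered 4 it was -4.13 with an adjusted p of 0.0181, where 14.7% of genes were called. With all mice kept and a block for those numbered 4 the adjusted p was 0.0441, where 1.75% were called. The call was not made with the replicate number as a block (adjusted p 0.0884) or with the compared groups alone (0.364).

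Klk1 and Klk8 did not pass the test between the same groups. Klk1 averaged 1879 ± 432 FPKM in colitis mice receiving BBR and 3008 ± 1082 FPKM in normal mice receiving BBR (SD, n = 3). The log2 difference was -0.63 (SE 0.56, 95% interval -1.85 to 0.60, adjusted p = 0.484 by limma), with -0.85 among mice numbered 1 to 3 and -0.19 between those numbered 4. For Klk8 it was -0.62 (SE 0.43, 95% interval -1.56 to 0.32, adjusted p = 0.386 by limma). Both intervals reach from falls of more than 1 on the log2 scale to rises, so neither a fall of that size nor its absence was shown with 3 mice a group.

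Colitis mice receiving BBR were then compared with colitis mice, the group that had also entered the choice of genes. Klk1 was higher in all 3 mice receiving BBR, with a ratio of means of 3.26 and a log2 difference of 1.88 (SE 0.56, 95% interval 0.66 to 3.11). The unadjusted p was 0.00582 and the adjusted p 0.512 by limma, which called 0 genes (0%) here and found 978 at an unadjusted p under 0.05. Non-overlap with higher values was found for 1.42% of genes. The difference was 1.90 among mice numbered 1 to 3 and 1.86 between those numbered 4. The Klk15 difference was 1.79 (SE 0.86, 95% interval -0.09 to 3.67, adjusted p = 0.812 by limma), with overlapping groups. It was 1.35 among mice numbered 1 to 3 and 2.67 between those numbered 4, and ran from 0.95 without the colitis mouse receiving BBR numbered 4 to 2.74 without the one numbered 3. Klk8 differed by -0.93 (SE 0.43, 95% interval -1.86 to 0.01, adjusted p = 0.798 by limma).

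In normal mice no member moved with BBR past the test, for which limma made 0 calls (0%) and had 208 genes at an unadjusted p under 0.05. The log2 difference was 0.11 for Klk1 (95% interval -1.12 to 1.33), 0.30 for Klk15 (-1.57 to 2.18) and -0.26 for Klk8 (-1.2 to 0.68), each with an adjusted p of 1 by limma. The sign for Klk1 and Klk15 turned when single mice were left out, and Klk15 differed by 0.75 among mice numbered 1 to 3 and by -0.58 between those numbered 4. This comparison shares the normal mice with the choice of genes.

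**Figure D2:**
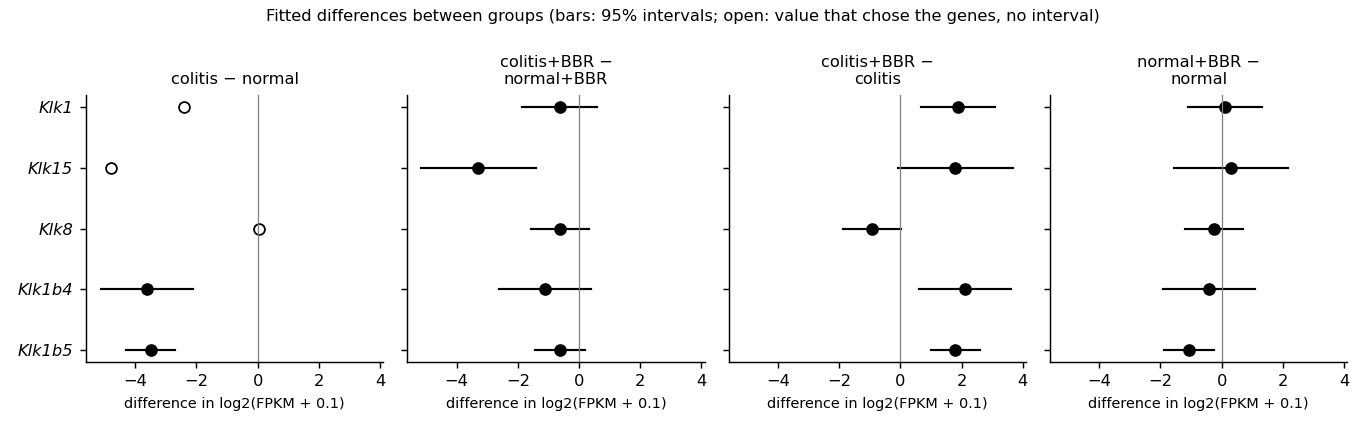
Fitted differences in log2(FPKM + 0.1) for Klk1, Klk15, Klk8, Klk1b4 and Klk1b5 in 4 comparisons, with 3 mice a group. Bars are 95% intervals, and open circles are the values of the comparison that chose the genes. The interval of Klk15 lies below 0 between the groups receiving BBR, and that of Klk1 above 0 between colitis mice with and without BBR.

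The rest of the family was sparse. Besides the members, 14 kallikreins had a row and 3 reached a mean of 0.1 FPKM, namely Klk1b3, Klk1b4 and Klk1b5, which lie next to Klk1 at its end of the cluster. Klk1b5 was 2.21, 2.13 and 2.11 FPKM in normal mice and 0.11, 0.10 and 0.09 FPKM in colitis mice. Its log2 difference was -3.49 (SE 0.37, adjusted p = 0.00325 by limma), and -1.52 or -4.30 with a constant of 1 or 0.01. The colitis values stand for about 1.9 to 2.4 reads, under the level of 3 reads (0.114 to 0.175 FPKM). It was 0.57, 0.33 and 1.07 FPKM in colitis mice receiving BBR, above every colitis mouse, as were 1.42% of genes, by 1.80 (SE 0.37, adjusted p = 0.427 by limma). In normal mice receiving BBR it was 0.81, 1.14 and 0.98 FPKM, below every normal mouse, as were 5.46% of genes, by -1.07 (SE 0.37, adjusted p = 1 by limma).

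Klk1b4 was 3.90, 2.56 and 1.2 FPKM in normal mice and 0, 0.63 and 0 FPKM in colitis mice. The difference of -3.63 (SE 0.69, adjusted p = 0.0345 by limma) was -1.52 or -5.85 with a constant of 1 or 0.01 and lost its call in 10 of 17 alternatives, 5 of them the omission of 1 mouse. Klk1b4 and Klk1b5 were 0.0465% to 0.109% and 0.0219% to 0.143% of Klk1 in the mice without colitis, and how reads from the shared windows were divided among them is not known from these values. Klk1b3 was below 1 FPKM in every mouse and passed no comparison over the 12 mice. Among mice numbered 1 to 3 alone it was lower between the groups receiving BBR by -2.47 (adjusted p = 0.0365 by limma). That fit called 15% of all genes. The values stand for about 5.1 and 8.0 reads in normal mice receiving BBR, and 1.0 and 0 reads in colitis mice receiving BBR. Between the mice numbered 4 the difference was 0.87. The 11 other kallikreins in the table reached at most 0.34 FPKM, with 6 to 11 of the 12 mice at 0.

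**Figure D3:**
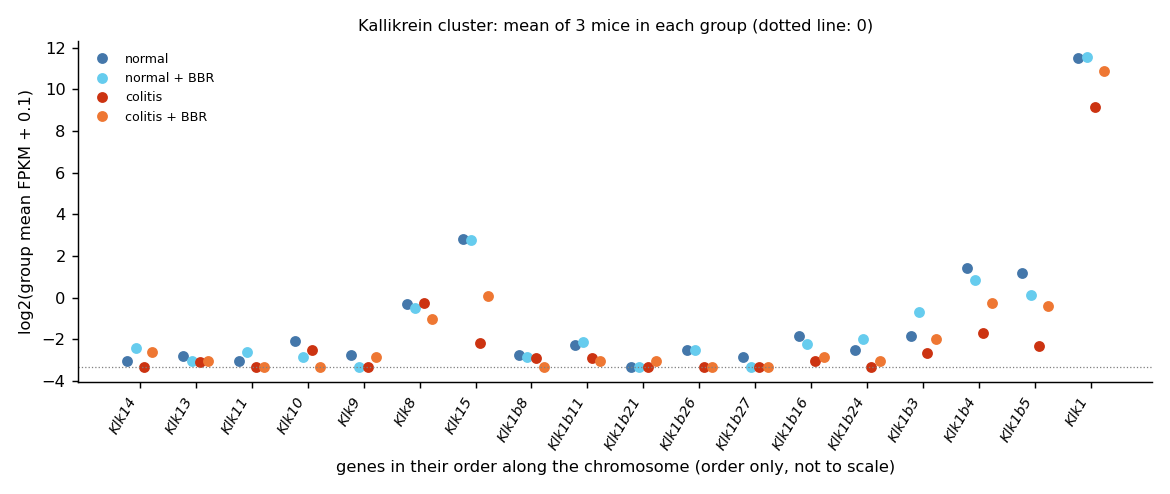
Group means of the 18 kallikreins in the table, as log2(mean FPKM + 0.1), in their order along chromosome 7 (order only). Each dot is the mean of 3 mice, and the dotted line marks 0. Klk1 at 577 to 3008 FPKM stands above all others, Klk15 and the Klk1b genes beside Klk1 are lowest in colitis mice, and Klk8 stays between 0.387 and 0.747 FPKM.

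The members did not move as 1 set from mouse to mouse. Over the 12 mice the Pearson r of log2 values was 0.68 between Klk15 and Klk1 and -0.23 after each group's mean was taken away. Between Klk1 and its copies these were 0.93 and 0.79 for Klk1b4 and 0.78 and -0.08 for Klk1b5. Between Klk15 and Klk8 they were -0.14 and -0.63. The points share libraries and, for the first values, the group differences, so the correlations describe these mice only.

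Genes with the most similar pattern were sought among 11943 genes with a mean of at least 1 FPKM, by Pearson r over the 12 mice. For Klk15 these were Itpr1 (a calcium release channel, r = 0.98), Abca8a (a membrane transporter, r = 0.98) and Gsn (gelsolin, which cuts actin filaments, r = 0.97). Itpr1 was 3.71 to 5.40 FPKM in normal mice against 1.09 to 1.88 FPKM with colitis. For Klk1 they were Sycn (syncollin of secretory granules, r = 0.95), Mptx1 (a mucosal pentraxin, r = 0.94) and Scin (an actin-cutting protein, r = 0.94). Sycn ran from 854 to 2452 FPKM in normal mice, from 190.3 to 440.1 FPKM with colitis and 763 to 2209 FPKM in colitis mice receiving BBR, the same order of groups as Klk1. For Klk8 they were H2-Eb1 (a class II antigen-presenting chain), Snx7 (a sorting nexin) and Pnrc2, with r from 0.90 to 0.91, and for Klk10 they were Tmpo, 2610318N02Rik and Sco1, with r from 0.76 to 0.79. The 3 genes of each member are the highest of 11943, so a high r comes with the choice. The Klk8 values rest on about 3.3 to 16.2 reads and the Klk10 values on 0 to 5.9 reads. The likeness of either to its genes is no finding.

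Smooth muscle markers were low in colitis mice, as Klk15 was. Their summed level was 1643 to 3081 FPKM in normal mice, 2311 to 4908 FPKM in those receiving BBR and 71.5 to 660.5 FPKM in colitis mice. In colitis mice receiving BBR it was 497, 477 and 3473 FPKM in the mice numbered 2, 3 and 4, and the last of these was also the mouse with Klk15 at 2.07 FPKM. In its muscle sum that mouse lay above every normal mouse. In Klk15 it lay below every normal mouse receiving BBR (5.33 to 8.77 FPKM). All 8 markers were lower in colitis mice, none past the adjusted limit, with a median log2 difference of -3.04 against -0.32 over all genes, and -1.95 against -0.40 between the groups receiving BBR. Between colitis mice with and without BBR all 8 were higher in those receiving it (median 1.44 against -0.09), and the sums overlapped. Fibroblast and connective tissue markers overlapped in sum between normal mice (302 to 512 FPKM) and colitis mice (201 to 787 FPKM), with 8 of 9 lower. Between the groups receiving BBR all 9 were lower, with sums of 192 to 282 FPKM against 344 to 671 FPKM and a median log2 difference of -1.16 against -0.40 over all genes. Of the enteric neuron and glia markers 6 of 8 were lower in both comparisons, with medians of -0.79 and -0.82, and their sums overlapped. None of these markers passed the adjusted limit. The part of muscle, connective tissue or nerve content in the Klk15 difference was not tested.

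Goblet cell markers overlapped between the groups in sum. Their summed level was 15080 to 34530 FPKM without colitis or BBR, 10090 to 74950 FPKM in colitis mice and 17350 to 83500 FPKM in colitis mice receiving BBR. Between colitis mice with and without BBR 9 of 10 markers were higher in the mice receiving BBR, with a median log2 difference of 0.58 against -0.09 over all genes, and 0 passed. Between normal and colitis mice receiving BBR 9 of 10 were higher with colitis as well (median 0.39 against -0.40), where the Klk1 difference was -0.63. Of the 10, 4 lay above and 6 below normal mice in colitis mice (median -0.07 against -0.32). The part of goblet cell content in the Klk1 values was not tested. Colon epithelium markers overlapped between normal (14240 to 23240 FPKM) and colitis mice (11170 to 21370 FPKM), and 0 of 12 passed the test. Leukocyte markers overlapped in sum between colitis mice (619.5 to 4218 FPKM) and normal mice (293 to 726 FPKM), and this sum was mostly Ly6g. Singly, 7 of 10 were higher and 3 lower. S100a8 (24.9 to 336.3 FPKM against 0), S100a9 (15.7 to 160.9 against at most 0.45 FPKM), Cd68 and Itgam were higher without overlap, as were 7.10% of genes. Only S100a8 passed, where 1.08% of all genes were called, and its call was lost in 5 of 6 omissions of a mouse.

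Markers of cell types known for kallikreins elsewhere were mostly low. The male accessory gland markers summed to 349 to 413 FPKM in normal mice and, without overlap, 74.4 to 239 FPKM in colitis mice, against 272 to 409 FPKM and 108 to 343 FPKM in the same groups with BBR. Almost all of this was Hoxb13, which the distal gut also expresses. Azgp1 averaged 1.62 FPKM in normal and 0.31 FPKM in colitis mice, also without overlap, as were 22.2% of all genes, and Sbp, Svs5 and Tgm4 averaged at most 0.15 FPKM in any group. Of these, 0 of 3 tested markers passed in any comparison, and their part in the Klk15 difference was not tested. The squamous markers summed to 9.69 to 14.0 FPKM in normal mice, 9.18 to 14.7 FPKM in normal mice with BBR, 10.2 to 55.9 FPKM in colitis mice and 4.28 to 23.1 FPKM in those with BBR, and 0 of 11 tested markers passed in any comparison. Ly6d gave most of the sum in colitis mice, with a mean of 29.4 FPKM against 6.40 FPKM in normal mice, and Krt13 averaged 2.75 against 0.59 FPKM. Of the basal markers, Krt14 averaged 0.947 to 1.13 FPKM and Krt15 0.18 to 0.52 FPKM over the groups, while Krt5 and Trp63 averaged at most 0.06 FPKM in any group. The part of squamous tissue in the kallikrein values was not tested. The skeletal muscle sum was 9.24 to 24.0 FPKM over the 12 mice, with 0 of 6 passing.

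**Figure D4:**
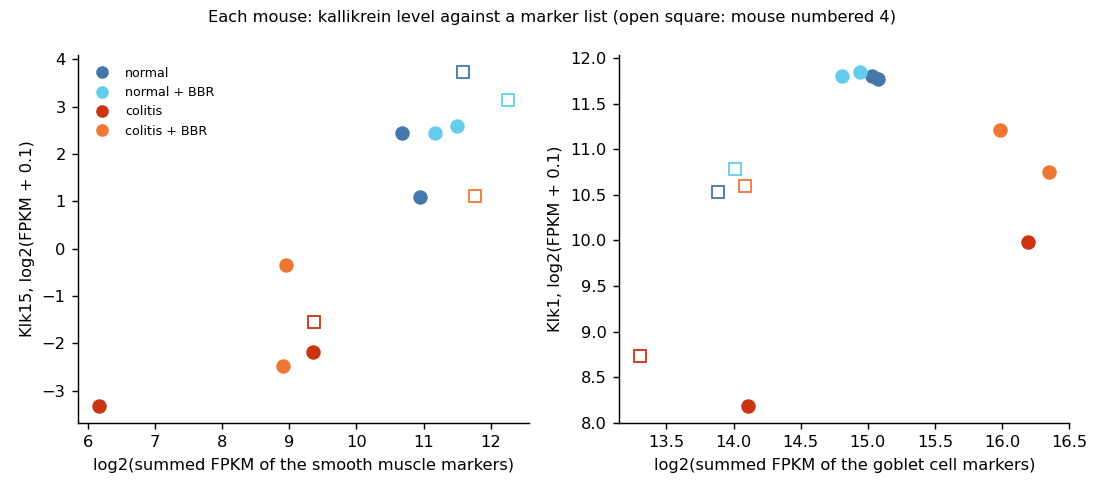
Each of the 12 mice by the summed FPKM of a marker list (horizontal, log2) and a kallikrein level (vertical, log2(FPKM + 0.1)), with Klk15 against smooth muscle markers on the left and Klk1 against goblet cell markers on the right. Open squares are mice numbered 4. Colitis mice have low Klk15 and low muscle sums of 71.5 to 660.5 FPKM, and their goblet sums run from 10090 to 74950 FPKM.

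The partners of the kallikreins showed few calls. Of 11 tested genes of the kinin system 0 passed in any comparison, with 4 higher and 7 lower in colitis mice. Bdkrb1, the inducible kinin receptor, averaged 1.21 FPKM in colitis mice and 0.217 FPKM in normal mice without overlap, as did 7.10% of genes in this direction (log2 difference 2.16, SE 0.48, adjusted p = 0.057 by limma). Between the groups receiving BBR it overlapped, with a difference of -0.09 (adjusted p = 0.918 by limma). Mme (neprilysin), which degrades kinins, averaged 0.0467 against 0.303 FPKM (-1.46, adjusted p = 0.0594 by limma), and the same difference between the groups receiving BBR was -2.21 with an adjusted p of 0.0503. Of the 4 protease-activated receptors 0 passed. The most abundant, F2rl1, a receptor activated by trypsin-like enzymes, averaged 99.3 FPKM in colitis mice and 74.8 FPKM in normal mice (0.40, adjusted p = 0.309 by limma). F2r, the thrombin receptor, averaged 4.84 FPKM in colitis mice and 11.6 FPKM in normal mice without overlap (-1.34, adjusted p = 0.17 by limma), and 3.37 against 10.2 FPKM between the groups receiving BBR, again without overlap (-1.85, adjusted p = 0.214 by limma), where 22.2% and 18.0% of all genes were separated in this direction.

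Among 15 tested serine protease inhibitors 1 rose in colitis mice and 0 fell, where 1.08% of all genes were called. This was Slpi, the secretory leukocyte protease inhibitor, at 614 against 11.0 FPKM (log2 difference 5.44, SE 0.79, adjusted p = 0.014 by limma), and it passed between the groups receiving BBR too (559 against 7.99 FPKM, 5.67, adjusted p = 0.0371 by limma). The second call was lost in 8 of 17 alternatives, 5 of them the omission of 1 mouse, with adjusted p-values up to 0.364. Among 21 other trypsin-like and chymotrypsin-like proteases 2 rose and 1 fell in colitis mice, against 1.08% of all genes called, and 0 passed in the other comparisons, in which 0% to 0.0392% of genes were called. Prss22 (tryptase epsilon) averaged 10.9 FPKM in colitis mice with 0.0133 FPKM in normal mice (6.30, adjusted p = 0.025 by limma). With normal mice near 0, its difference was 3.29 or 8.99 with a constant of 1 or 0.01, and its call was lost in 5 of 6 omissions of a mouse. Prss27 (pancreasin) averaged 7.19 against 0.357 FPKM (4.08, adjusted p = 0.0477 by limma). The Prss27 call was lost in 11 of 17 alternatives, among them the omission of any of the 6 mice. Cela1, an elastase, averaged 72.7 FPKM in colitis mice and 333 FPKM in normal mice (-2.12, SE 0.38, adjusted p = 0.0288 by limma). The Cela1 call was lost in 5 of 17 alternatives, 4 of them the omission of 1 mouse. In colitis mice receiving BBR Cela1 averaged 166.7 FPKM and lay above every colitis mouse, as 1.42% of genes did (1.12, adjusted p = 0.586 by limma), while 14 of the 21 proteases were lower and 7 higher in this comparison. Of 10 steroid receptors and targets 0 passed in any comparison.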

How the data were processed

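Colorectal RNA of 12 mice was analysed, with groups and replicate numbers taken from the sample labels. The authors filtered reads with SOAPnuke, aligned them with Bowtie2 2.2.5 and estimated expression with RSEM 1.2.12, with mm9 named as the build in the submitters' notes. The values the authors deposited, scaled for transcript length and depth, are read as FPKM. Their unit is not given in the sources used here and could also be TPM. No read counts were used. The depth was estimated from steps between low values, on GENCODE transcript lengths. Genes with a mean of at least 0.1 FPKM (15315 of 17734) were fitted as log2(FPKM + 0.1) by limma 3.58.1 (R 4.3.3), estimating 1 mean for every group from all 12 mice, with a trend on expression. This scale understates changes of low genes. Adjusted p-values follow Benjamini and Hochberg across the fitted genes, and calls needed a value under 0.05. Single genes were also compared by exact two-sided permutation, whose smallest p is 0.1. Among fitted genes above 1 FPKM in both mice, no 2 mice had more than 0.35% equal values. The labels do not state cages or litters, so p-values measure the spread between these mice.

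The members and gene lists were chosen with earlier results of these data known. Genes named beyond the members are kallikreins and list genes past the adjusted limit, marker genes by level, the 3 genes most like each member, and the fall next to Klk15. Bdkrb1, Mme, F2rl1, F2r, Azgp1, Hoxb13, S100a9, Cd68 and Itgam were named after their values were seen. Each choice was varied in turn: pseudocounts of 1 and 0.01, no filter or a minimum mean of 1, quantile normalization, median centring, the compared groups alone, no trend, blocks, omission of each mouse, and mice numbered 1 to 3 alone. Promoters are from RefSeq and transcripts from GENCODE, both on GRCm38, with all 4 members matched. The fits were tested on simulated data. Python 3.11.15, SciPy 1.17.1 and matplotlib 3.10.9 were used.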

Additional observations from a re-analysis of the deposited data

How the results depend on the processing

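None of the 9 member results with a test passed in the main fit. In 143 of 150 alternative values they kept their direction and stayed uncalled. The difference of Klk15 between the groups receiving BBR passed with a block for the mice numbered 4 (-3.29), with mice numbered 1 to 3 alone (-3.92) and without the colitis mouse receiving BBR numbered 4, within a range of -4.13 to -2.34 when single mice were left out. The cause was not tested. In normal mice with and without BBR the sign turned for Klk1 (-0.31 to 0.46) and Klk15 (-0.36 to 0.96) when single mice were left out. The pseudocounts of 1 and 0.01 moved the difference of Klk15 between colitis and normal mice to -2.54 and -6.25, since its colitis values are near 0.

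The replicate numbers were not taken to pair the mice, because a correlation of deviations above 0.1 was required of every same-numbered pair and 1 of 13 fell short (0.078). Same-numbered pairs averaged 0.34 and other pairs -0.10, a hint from the data that numbers are shared, strongest for number 4. With the replicate block Klk15 between the groups receiving BBR was -3.74 with an adjusted p of 0.0884, and calls between colitis and normal mice rose from 165 to 734 (339 higher and 395 lower).

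Calls between colitis and normal mice were otherwise 91 with pseudocount 0.01, 71 with the filter at 1 and 258 with quantile normalization (185 higher and 73 lower, against 100 and 65). They were 488 with the compared groups alone (273 higher and 215 lower). More were lower with a block for the mice numbered 4 (1412, with 429 higher and 983 lower) and with mice numbered 1 to 3 (804, with 239 higher and 565 lower). Without single mice they were 11 to 211 (11, 14 and 16 without the normal mice numbered 1, 3 and 4, 14 and 77 without the colitis mice numbered 1 and 2). Between the groups receiving BBR the 6 calls became 3 with median centring, 0 with the compared groups alone, 12 without the trend, 268 with the block for the mice numbered 4, 2302 with mice numbered 1 to 3 and 0 to 2255 without single mice (2255 without the colitis mouse receiving BBR numbered 4, at most 2 without any other). Between colitis mice with and without BBR the 0 calls became 4 and 2 with pseudocounts 1 and 0.01, 1 without a filter, 3 without the trend, 1 with the replicate block, 2 with the block for the mice numbered 4 and 0 to 58 without single mice (58 without the colitis mouse receiving BBR numbered 3). Between normal mice 1 call appeared with the compared groups alone. Leaving out single mice removed the calls of Slpi (3 of 6 mice in colitis against normal, 5 of 6 between the groups receiving BBR), Prss22 (5), Prss27 (6), Cela1 (4) and S100a8 (5), but not of Klk1b5 (0).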
